A study of Mus musculus with 25 samples.

Results

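The postnatal maturation of the mouse sinoatrial node (SAN), the pacemaker region of the heart, was followed from postnatal day 4 (P4) to postnatal day 14 (P14). The comparison used 6 of the 25 RNA-seq libraries of the study, 3 of SAN at P4 and 3 of SAN at P14, taken by the stage and tissue in their labels. All 6 came from Hcn4-GFP reporter mice on a mixed strain background, without further treatment. Beside them stood 3 SAN libraries of embryonic day 14.5 (E14.5) and 9 libraries of right atrium (RA) of the same 3 stages and the same genotype, while the 7 libraries of an Isl1 deletion experiment were not analysed here. Node and atrium were outlined by eye on frozen sections and cut out with a laser, and each library holds RNA of whole tissue that was amplified before sequencing. Which animals or litters gave which library is not stated, so every p-value measures the spread between these libraries.

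Pacemaker cells depolarise on their own through the hyperpolarisation-activated current carried by Hcn channels, together with calcium channels and calcium release from the sarcoplasmic reticulum. The transcription factors Isl1, Tbx3, Shox2 and Tbx18 set up the node in the embryo and keep it apart from working atrial muscle, which expresses connexins for fast conduction and natriuretic peptides. In the weeks after birth heart muscle in general leaves the cell cycle, replaces fetal sarcomere proteins with adult ones and turns from glucose towards fatty acids, while the connective tissue and innervation of the node grow.

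Levels are given as CPM, the deposited read counts on the authors' scaling for library composition, divided by a single constant for all libraries. Library totals were therefore not made equal. Differences are P14 minus P4 on the log2(CPM + 1) scale with their standard error (SE), which understates changes of genes near 0 CPM. A gene was called when its Benjamini-Hochberg adjusted p from limma, over all 17568 genes tested, was under 0.05. Depth was 8179985 to 13097665 recovered reads per library, so that 1 read was worth 0.0800 to 0.133 CPM. Libraries of a stage differed by more than counting error, with a chi-squared over its degrees of freedom of 67.1 at P4 and 43.1 at P14. The 6 libraries were of SAN by their markers. Hcn4 stood at 3748, 1849.7 and 2144 CPM at P4 and 1261, 1302 and 1141 CPM at P14, all above the 17.5 CPM of the highest P4 or P14 RA library, which is a check of the dissection, since Hcn4 staining of the cut sections followed the capture. Nppa, the atrial natriuretic peptide gene, reached at most 4.53 CPM in the 6 SAN libraries against at least 449.6 CPM in the 6 RA libraries of these stages. Transcripts of the X-inactivation RNA Xist stood at 3967 CPM in P4 replicate 3, 3045 CPM in P14 replicate 1 and 3480 CPM in P14 replicate 3, and at no more than 6.66 CPM in the others, so that both stages held libraries of either sex.

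Between P4 and P14, 982 genes were called in SAN (5.59%), of which 471 were higher (2.68% of genes tested) and 511 lower (2.91%) at P14. In 7.83% of genes tested every P14 library lay above every P4 library, and in 11.3% below. Large changes were more often increases, with 233 genes higher and 105 lower by at least 2 log2 units. The median difference over all genes tested was -0.08. The calls lean on the spread shared across 18 libraries of 6 groups. With the 6 SAN libraries alone 43 genes were called, all of them among the 982, and these included Tnni1, H19, Slc2a1 and Fbn2 among the lower genes and Hmcn2, Pi16, C4b, Kcna1, Lyz2, Scn7a, Dusp1, Gsn, Serping1, Tgfbr3, Dcn and Rora among the higher ones. Leaving out single libraries gave 555 calls without P4 replicate 2 and 555 without P14 replicate 1, and 322 calls were lost in no case. Without P4 replicate 3, 637 genes were called higher and 511 lower, and without P4 replicate 1, 335 higher and 491 lower. List counts given below for these cases are to be read beside these totals. Of the calls described below, those of Aspa, Ryr3, Tpm2, Atp2a3, Lgi1, Acsl6, Sfrp4, Dio2, Vwf, Acta2 and Myh11 were lost both in edgeR and in DESeq2. Those of Tube1, Cacna2d2, Ntm, Mybpc3, Tnnt1, Kcnip2, Rfc4, Mcm2, Uhrf1, Fkbp5, C1s, C1ra, Cd163 and Ptpro were lost in edgeR, and those of Isl1 and Hamp in DESeq2.

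**Figure D1:**
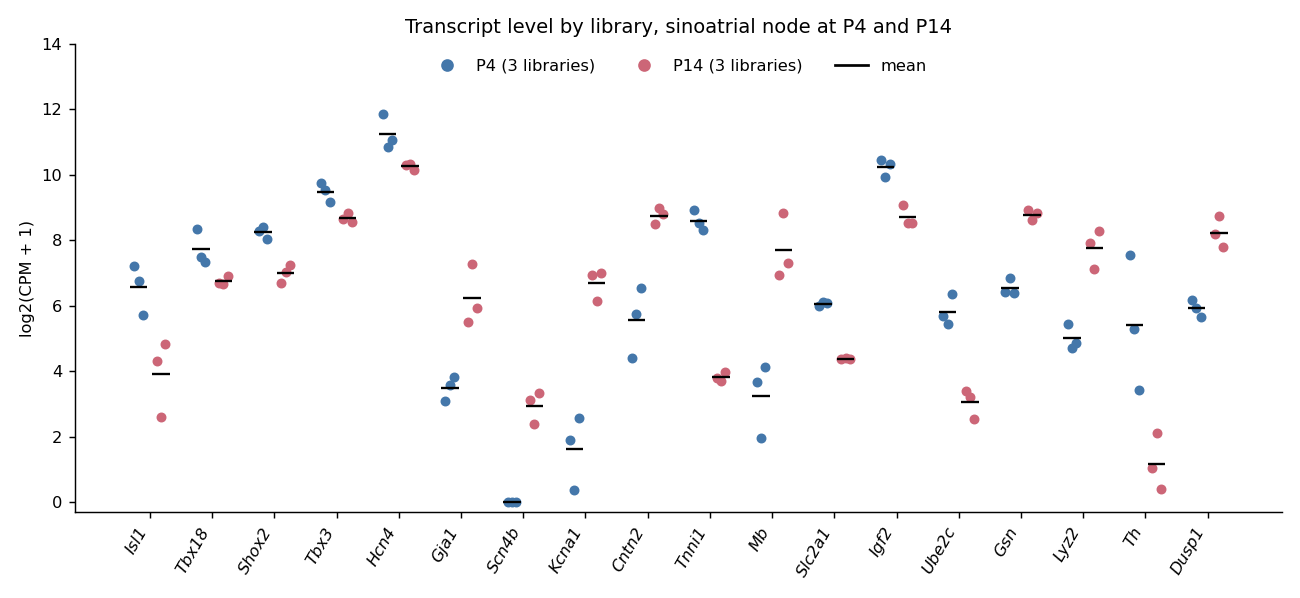
Level of 18 genes named in the text, as log2(CPM + 1), in each of the 3 P4 and 3 P14 SAN libraries (points), with the mean of each group (bars). Tnni1, Slc2a1 and Th were lower at P14 and Scn4b, Kcna1 and Dusp1 higher, with no overlap between stages.

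The transcription factor genes of the node were lower at P14 or showed no called change. Isl1, which encodes the LIM homeodomain factor needed for the node to form, stood at 149, 108 and 51.7 CPM at P4 and 18.9, 5.06 and 27.4 CPM at P14. Every P14 library was below every P4 library, and at E14.5 the gene had stood at 165, 246 and 125 CPM. The difference was -2.66 ± 0.58, adjusted p = 0.00918, and it fell short of the threshold without P14 replicate 2 (adjusted p = 0.0507). Tbx18, a T-box factor of the sinus horn, stood at 325, 181 and 161 CPM at P4 and 103, 100.5 and 119 CPM at P14 and fell by 0.97 (adjusted p = 0.0189), a call lost without P4 replicate 1, P14 replicate 1 or P14 replicate 2. Shox2, a repressor of the atrial programme, stood at 309, 342 and 261 CPM at P4 and 102, 129 and 152 CPM at P14. Tbx3, which holds down atrial genes in the node, stood at 858, 750.2 and 577 CPM at P4 and 400.2, 459 and 377 CPM at P14. For both genes P4 and P14 did not overlap, yet their differences of -1.25 and -0.81 did not pass (adjusted p = 0.126 and 0.187). At E14.5 Tbx3 had stood at 289, 324 and 215 CPM, below both later stages. Shox2 had stood at 507, 644 and 517 CPM, above both. Of the 13 node factors and markers tested, 3 were called lower (23.1%, against 2.91% of all genes tested) and 0 higher. Negative differences numbered 12, and the median was -0.62. The number called was 1 without P4 replicate 1 or P14 replicate 1 and 0 without P14 replicate 2.

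Of 14 pacemaker channel and junction genes 1 was called higher (7.14%, against 2.68% of all genes tested) and 1 lower (7.14%, against 2.91%). Hcn4, which encodes the main pacemaker channel of the node, was below every P4 library in all 3 P14 libraries. The difference was -0.995 ± 0.34, adjusted p = 0.0876. At E14.5 Hcn4 had stood at 1245, 1351 and 1143 CPM, overlapping the P14 libraries. Of this list, Kcnj3 was called higher and Cacna2d2 lower. Kcnj3 encodes a subunit of the potassium channel through which the vagus nerve slows the heart, and stood at 90.9, 55.3 and 52.5 CPM at P4 and 91.7, 210.1 and 146 CPM at P14 (1.12 ± 0.32, adjusted p = 0.0394). Its lowest P14 value lay less than 1 CPM above its highest P4 value. Cacna2d2, an accessory subunit of calcium channels, stood at 1501, 1544 and 854 CPM at P4 and 596, 736 and 557 CPM at P14 (-1.01 ± 0.29, adjusted p = 0.0468). Both calls were lost without P4 replicate 2, P14 replicate 2 or P14 replicate 3, that of Kcnj3 also without P4 replicate 3 and that of Cacna2d2 also without P4 replicate 1 or P14 replicate 1. The L-type and T-type calcium channel genes Cacna1d and Cacna1g differed by -0.18 and -0.54 with overlapping stages. None of 29 genes of autonomic and cyclic AMP signalling was called by limma, edgeR or DESeq2, where 4 had an unadjusted limma p under 0.05.

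Some genes of working atrial muscle were higher at P14. Of 15 tested, 4 were called higher (26.7%, against 2.68% of all genes tested) and 0 lower, and 12 had a positive difference (median 0.48). edgeR and DESeq2 each called 2 higher, and the fit of the 6 SAN libraries alone called 0. The count was 2 without P4 replicate 1 or P14 replicate 1. Gja1 encodes connexin 43, the gap junction protein of fast-conducting heart muscle that the node largely lacks, and stood at 7.52, 11.02 and 13.1 CPM at P4 and 44.2, 155 and 59.9 CPM at P14. The lowest P14 library was more than 3 times the highest P4 library, although P14 replicate 2 was well above the others. The difference was 2.74 ± 0.33, adjusted p = 3.02e-05, and the mean rose 8.17-fold. At E14.5 the mean of Gja1 lay between those of these stages, with libraries at 56.4, 28.1 and 48.0 CPM. Ryr3, a ryanodine receptor gene, stood at 0, 4.81 and 21.2 CPM at P4 and 35.7, 127 and 36.6 CPM at P14, with P4 replicate 3 nearest to P14 (3.47 ± 0.76, adjusted p = 0.00914), a call lost in edgeR and DESeq2 (adjusted p = 0.0522 and 0.0555). The connexin 40 gene Gja5 was not called, at 5.32, 37.4 and 84.5 CPM at P4 and 107, 73.4 and 50.2 CPM at P14. Nppa was not called either, at 0.734, 0.1003 and 1.83 CPM at P4 and 3.27, 4.53 and 1.84 CPM at P14, and Nkx2-5 stood below 10 CPM in all 6 libraries.

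Among ion channel genes the increases outnumbered the decreases. Of 31 potassium channel genes 5 were higher (16.1%, against 2.68% of all genes tested) and 0 lower. Of 15 sodium channel and conduction genes 4 were higher (26.7%) and 0 lower. The potassium channel count was 2 without P4 replicate 2 or P14 replicate 2. Kcna1, which encodes the Kv1.1 channel known from axons, stood at 2.75, 0.301 and 4.96 CPM at P4 and 121, 70.5 and 128 CPM at P14. The P14 libraries lay far above all P4 libraries and at E14.5 no read was counted, and the difference was 5.08 ± 0.58, adjusted p = 1.83e-05, a 39.9-fold change of the mean. Scn4b, a beta subunit of sodium channels, had no read in any P4 library and stood at 7.77, 4.27 and 9.04 CPM at P14. Against the limit of 3 reads that a count of 0 allows in each P4 library, its P14 mean was at least 23.4-fold higher (adjusted p = 3.26e-05). Scn7a encodes an atypical sodium-sensing channel and stood at 77.8, 126 and 141 CPM at P4 and 636, 502 and 657 CPM at P14, without overlap (2.41 ± 0.33, adjusted p = 1.64e-04). Kcnt2, a sodium-activated potassium channel gene, stood at 7.71, 35.8 and 51.5 CPM at P4 and 139.9, 141 and 117 CPM at P14, where P4 replicate 1 was the lowest (2.38 ± 0.52, adjusted p = 0.00864). The calls for Kcnip2, an auxiliary subunit of the transient outward channel (2.49), and Abcc8, the sulfonylurea receptor gene (1.93), were both lost without P4 replicate 2 or P14 replicate 2.

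Adhesion genes known from axons and nodes of Ranvier were called in both directions. Of 20 tested, 5 were higher (25%, against 2.68% of all genes tested) and 4 lower (20%, against 2.91%). Cntn2 encodes contactin 2, a cell adhesion molecule that is also a marker of the cardiac conduction system. It stood at 20.1, 52.9 and 92.8 CPM at P4 and 359, 503 and 447 CPM at P14, and each P14 library was over 3 times the highest P4 library (3.19 ± 0.69, adjusted p = 0.00876). At E14.5 it was at or below 1.05 CPM, so that the 3 stages did not overlap. Lgi1, a secreted ligand of the Adam22 receptor, stood at 0.734, 0 and 0 CPM at P4 and 19.6, 4.27 and 7.28 CPM at P14 (3.01 ± 0.51, adjusted p = 0.00107). Adam22 itself went down, from 234, 219 and 230.3 CPM to 63.8, 79.4 and 108 CPM (-1.46 ± 0.28, adjusted p = 0.00356), with the stages well apart. Opcml and Ntm, members of one family of GPI-anchored adhesion molecules, were called in opposite directions at 1.70 and -1.26, and another family member, Lsamp, was among the largest increases. Lsamp stood at 1.83, 5.11 and 0 CPM at P4 and 94.8, 36.0 and 85.6 CPM at P14 (4.70 ± 0.59, adjusted p = 4.39e-05). The calls for Opcml and Ntm were lost in at least 3 of the 6 cases where a library was left out, and those for Lsamp, Lgi1, Adam22 and Cntn2 in none. The list held 2 higher calls without P4 replicate 2 or P14 replicate 1 and 1 lower call without either of these libraries.

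The fetal slow skeletal troponin I gene Tnni1 gave the smallest adjusted p of any gene named here. It stood at 486, 372 and 319 CPM at P4 and 12.8, 12 and 14.8 CPM at P14. The P14 libraries lay within 3 CPM of each other and far below every P4 library, and the mean fell from 392 ± 85.6 to 13.2 ± 1.44 CPM (SD, n = 3), a 29.7-fold change (-4.77 ± 0.22, adjusted p = 9.76e-12). The P4 values were already below the 936 CPM of the lowest E14.5 library. The cardiac troponin I gene Tnni3 had a mean of 1.43 CPM at P4 and 1.21 CPM at P14 and was not called. Tnni3 thus stood near the floor, while the mean of the troponin T gene Tnnt2 was 6665 CPM at P4 and 6073 CPM at P14. Whether the deposited values count Tnni3 in full was not tested, so a rise of Tnni3 is not shown to be absent. Myh8, the perinatal skeletal myosin heavy chain, stood at 11.5, 31.3 and 42.8 CPM at P4 and 0.246, 6.66 and 2.56 CPM at P14 and fell by 3.01 (adjusted p = 0.00332). Of 35 sarcomere genes 4 were lower (11.4%, against 2.91% of all genes tested) and 4 higher (11.4%, against 2.68%), with a median of -0.09. The slow and cardiac troponin C gene Tnnc1 went from 402, 601 and 618 CPM to 273, 254 and 255 CPM without overlap (-1.02 ± 0.21, adjusted p = 0.00600). Myoz2, which encodes a Z-disc protein, went from 242, 219 and 299 CPM to 564, 552 and 563 CPM (1.15 ± 0.22, adjusted p = 0.00320). Calls of Tnnt1 and Mybpc3 (lower) and of Lmod2, Tpm2 and Myh7 (higher) were each lost in at least 2 of the 6 cases where a library was left out, so that 1 higher call remained without P4 replicate 1, P14 replicate 1 or P14 replicate 3, and 2 lower calls without P4 replicate 2 or P14 replicate 3. Myh7 went up, opposite to Tnni1 and Myh8, from a mean of 1209 CPM at P4 to 1922 CPM at P14 (0.65 ± 0.19, adjusted p = 0.0491). The atrial myosin genes Myh6, Myl7 and Myl4 differed by 0.47, 0.05 and 0.16, none of them called.

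Of 29 calcium handling genes 2 were called higher (6.90%, against 2.68% of all genes tested) and 1 lower (3.45%, against 2.91%), while edgeR and DESeq2 each called 0 higher and 1 lower. Atp2a2 and Ryr2, the calcium pump and the release channel of the cardiac sarcoplasmic reticulum, differed by 0.18 and 0.29 with overlapping stages. Pln, the phospholamban inhibitor of that pump, stood at 5114, 3369.5 and 1872 CPM at P4 and 2257, 2129 and 2389 CPM at P14, inside the P4 range. The 3 calls were Ryr3, Atp2a3 and Camk2a. Atp2a3 is a pump isoform known from vessels and blood cells and stood at 2.84, 0 and 10.1 CPM at P4 and 83.6, 9.46 and 54.7 CPM at P14, where P14 replicate 2 lay below P4 replicate 3. Camk2a, a calcium-dependent kinase gene, stood at 212, 212 and 114 CPM at P4 and 55.6, 72.8 and 86.1 CPM at P14 and fell by 1.28 (adjusted p = 0.0100). The Atp2a3 call was lost without P4 replicate 2, P14 replicate 1 or P14 replicate 3, and the Camk2a call without P4 replicate 2 or P14 replicate 1.

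Of 16 genes of creatine kinase, myoglobin and energy buffering 3 were called higher (18.8%, against 2.68% of all genes tested) and 0 lower. Mb, the gene of the oxygen carrier myoglobin, stood at 11.9, 2.91 and 16.4 CPM at P4 and 121, 455 and 159 CPM at P14. All P14 libraries were above all P4 libraries, with P14 replicate 2 the highest by a wide margin (4.44 ± 0.69, adjusted p = 5.19e-04). Ckmt2, the mitochondrial creatine kinase of muscle, stood at 0, 0.201 and 5.48 CPM at P4 and 23.8, 88.2 and 42.7 CPM at P14 and differed by 4.53 ± 0.76, adjusted p = 0.00107. Fndc5, a membrane protein gene of muscle, rose by 2.10 (adjusted p = 0.00217). Slc2a1, the glucose transporter GLUT1 of fetal heart, was nearly identical within each stage, at 63.5, 68.0 and 67.2 CPM at P4 and 19.9, 20.1 and 20.01 CPM at P14. It fell 3.31-fold between them (-1.68 ± 0.26, adjusted p = 4.41e-04), and it was the only called gene of 28 in glucose uptake and glycolysis (3.57% lower, against 2.91% of all genes tested). Idh2, a mitochondrial isocitrate dehydrogenase, was the only call among 30 genes of the citrate cycle and mitochondrial biogenesis, 3.33% of the list (-0.90 ± 0.18, adjusted p = 0.00600). Of 41 respiratory chain and ATP synthase genes 0 were called by limma, edgeR or DESeq2, and 2 had an unadjusted limma p under 0.05. Their median was -0.03. In fatty acid uptake and oxidation 2 of 32 were higher (6.25%). Of these, Ucp3, a mitochondrial carrier, had no read at P4 and 1.39, 3.60 and 4.64 CPM at P14, at least 10.7-fold above the limit of 3 reads (adjusted p = 0.0192), and Acsl6 activates long-chain fatty acids (2.36). Both calls were lost without P14 replicate 3, that of Ucp3 also without P4 replicate 2 or P14 replicate 2 and that of Acsl6 also without P4 replicate 3 or P14 replicate 1.

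The cell cycle list held the largest share of lower calls of the 45 lists with a member tested. Of 36 genes tested, 21 were called lower (58.3%, against 2.91% of all genes tested) and 0 higher, 34 had a negative difference, and in 23 the stages did not overlap, against 11.3% of all genes tested whose P14 libraries all lay lower. The median was -1.60. Ube2c encodes the ubiquitin-conjugating enzyme that works with the anaphase-promoting complex. It stood at 50.3, 42.5 and 80.7 CPM at P4 and 9.49, 8.397 and 4.88 CPM at P14 (-2.77 ± 0.33, adjusted p = 3.02e-05), with each P14 library far below each P4 library. Mki67, the proliferation antigen, stood at 239, 285 and 678 CPM at P4 and 102, 118 and 148 CPM at P14, where P4 replicate 3 was far above the other P4 libraries (-1.56 ± 0.26, adjusted p = 0.00103). Ccnb1, the mitotic cyclin, stood at 9.999, 36.1 and 44.8 CPM at P4 and 3.52, 6.93 and 1.92 CPM at P14 (-2.49 ± 0.45, adjusted p = 0.00214). Birc5, a subunit of the chromosomal passenger complex, stood at 9.36, 18.1 and 18.7 CPM at P4 and 1.06, 2.53 and 3.92 CPM at P14 (-2.26 ± 0.41, adjusted p = 0.00213), and Top2a, the topoisomerase that untangles chromosomes, at 113, 85.0 and 225 CPM at P4 and 53.2, 49.7 and 37.5 CPM at P14 (-1.46 ± 0.28, adjusted p = 0.00388). These 5 calls held whichever library was left out. For the list as a whole the count was 9 to 20 when single libraries were left out, with 9 without P4 replicate 3, and 0 in the fit of the 6 SAN libraries alone. The summed level of the list was 1307, 1680 and 2865 CPM at P4 and 842, 885 and 869 CPM at P14, so that P4 replicate 3 was highest and the P14 libraries lay close together.

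**Figure D2:**
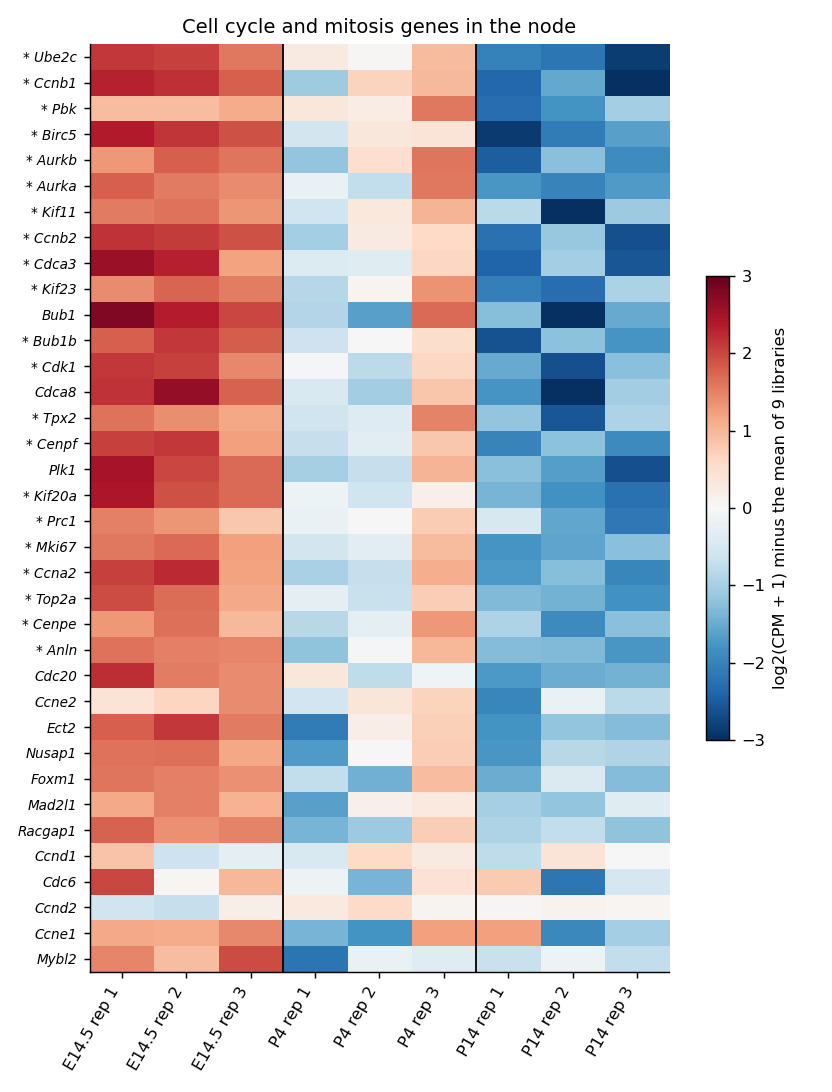
Level of 36 cell cycle and mitosis genes in the 9 SAN libraries, as log2(CPM + 1) minus the mean of the 9, ordered by the difference between P14 and P4; asterisks mark the 21 genes called lower at P14. Values step down from E14.5 to P4 and again to P14 in most rows, and P4 replicate 3 is the highest P4 library in most.

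Many genes that peak in mitosis carry the cell cycle homology region (CHR), a promoter element with the letters TTTGAA that binds the DREAM and MuvB complexes, often beside CCAAT boxes bound by NF-Y. The 200 bases before the annotated start of the 5 cell cycle genes named above are shown because these genes moved together, with TTTGAA on either strand in capitals (it reads TTCAAA where it lies on the other strand). They come from RefSeq on build GRCm38.p6, in the direction of transcription.
Ube2c (chr2:164769729-164769928, + strand): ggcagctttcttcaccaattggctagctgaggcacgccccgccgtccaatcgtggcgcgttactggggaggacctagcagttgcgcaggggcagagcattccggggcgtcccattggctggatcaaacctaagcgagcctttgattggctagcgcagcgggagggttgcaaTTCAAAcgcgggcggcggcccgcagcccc
Ccnb1 (chr13:100786487-100786686, - strand): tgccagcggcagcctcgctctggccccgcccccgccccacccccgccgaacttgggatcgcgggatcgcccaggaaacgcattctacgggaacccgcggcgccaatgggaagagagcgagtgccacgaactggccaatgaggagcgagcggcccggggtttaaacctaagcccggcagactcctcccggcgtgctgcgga
Birc5 (chr11:117849037-117849236, + strand): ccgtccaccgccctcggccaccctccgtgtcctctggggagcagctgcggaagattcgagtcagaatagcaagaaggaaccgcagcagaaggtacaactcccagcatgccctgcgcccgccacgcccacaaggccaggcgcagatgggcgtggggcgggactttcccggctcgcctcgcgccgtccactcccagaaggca
Mki67 (chr7:135716380-135716579, - strand): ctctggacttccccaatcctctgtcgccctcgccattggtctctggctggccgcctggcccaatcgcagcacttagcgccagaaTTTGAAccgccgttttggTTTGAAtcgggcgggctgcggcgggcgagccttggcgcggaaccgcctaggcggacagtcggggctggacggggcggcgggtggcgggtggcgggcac
Top2a (chr11:99024190-99024389, - strand): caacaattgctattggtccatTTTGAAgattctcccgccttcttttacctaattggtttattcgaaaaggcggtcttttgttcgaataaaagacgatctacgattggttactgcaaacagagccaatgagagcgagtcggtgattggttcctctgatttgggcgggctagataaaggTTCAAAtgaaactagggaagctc
Ube2c held 1 copy, starting 29 bases before the start site, Mki67 held 2, at 116 and 98 bases, and Top2a held 2, at 179 and 23 bases. Ccnb1 and Birc5 held none in these letters within the window. In windows of 300 bases, 250 before and 50 after the start, TTTGAA was found on either strand in 18 of 27 cell cycle genes with a window (66.7%), against 20.2% of 27025 genes. It was present in 13 of 16 genes called lower and in 5 of 11 that were not called. CCAAT, on either strand, was found in 20 of the 27 (74.1%) against 41.1% of all genes. These matches describe letters and not binding.

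Genes that work in S phase were also called in 1 direction. Of 27 DNA replication genes 4 were called lower (14.8%, against 2.91% of all genes tested) and 0 higher. The median was -0.90, and 25 had a negative difference. The called ones were Mcm2, a helicase subunit (-1.42), Prim1, the primase (-1.91), Rfc4, a clamp loader subunit (-1.99), and Uhrf1, which maintains DNA methylation (-1.89), and each of these calls was lost in at least 2 of the 6 cases where a library was left out, with 0 called without P4 replicate 2 and 1 without P4 replicate 3. TTTGAA was found in 3 of 23 of these promoters, while an E2F motif, TTTNGCGC on either strand, was found in 9 of 23 against 1.57% of all genes. Replication-dependent histone genes, which are transcribed in S phase, were called lower in 17 of 37 cases (45.9%) and higher in 0. All 37 had a negative difference (median -1.48), with 10 called without P4 replicate 3. Hist1h2bm went from 15.6, 17.1 and 49.2 CPM to 5.07, 4.53 and 4.32 CPM and Hist1h2bg from 38.3, 36.6 and 70.6 CPM to 16.2, 15.6 and 14.3 CPM. Copies of a histone gene are nearly identical, so reads may be shared between them and the count of genes is uncertain. Among the 12 largest decreases was Tube1, a tubulin of centrioles, which stood at 16.8, 22.1 and 19.7 CPM at P4 and 0.0818, 5.06 and 1.28 CPM at P14 (-3.05 ± 0.60, adjusted p = 0.00430).

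Genes of fetal growth were also among those that fell. Of 29 imprinted and fetal growth genes 10 were lower (34.5%, against 2.91% of all genes tested) and 1 higher (3.45%, against 2.68%). The median was -0.93. H19, a non-coding RNA made from the same imprinted domain as Igf2, stood at 344, 341 and 301 CPM at P4 and 64.6, 23.9 and 29.0 CPM at P14, below the lowest E14.5 library, at 1275 CPM, in all 6. It differed by -3.17 ± 0.27, adjusted p = 3.46e-07. Igf2, the fetal growth factor, stood at 1412, 980.4 and 1298 CPM at P4 and 540.0, 370.4 and 370.4 CPM at P14 and fell 2.88-fold (-1.53 ± 0.23, adjusted p = 3.04e-04). Its receptor gene Igf2r, whose product clears the factor, went from 425, 535 and 631 CPM to 238, 248 and 263 CPM (-1.07 ± 0.15, adjusted p = 2.22e-04). Gpc3, a glypican that restrains growth, went from 546, 229.9 and 167 CPM to 33.9, 42.5 and 69.8 CPM, with P4 replicate 1 the highest (-2.54 ± 0.40, adjusted p = 6.43e-04). Grb10, an adaptor that dampens insulin receptor signalling, fell by 1.11 (adjusted p = 0.00107). In these 5 genes no P14 library reached the lowest P4 library, and every call held whichever library was left out. Dlk1, a delta-like membrane protein, varied widely within P4 (41.4, 12.3 and 1.13 CPM) and was at 0, 0.133 and 0 CPM at P14. Its call was lost without P4 replicate 1 or P4 replicate 2.

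Several connective tissue genes were higher at P14. Of 17 fibroblast markers 8 were higher (47.1%, against 2.68% of all genes tested) and 0 lower. All 17 had a positive difference, and the median was 0.94. Gsn, the actin-severing protein gelsolin, stood at 85.8, 114 and 83.2 CPM at P4 and 485, 391 and 453 CPM at P14, in tight groups (2.23 ± 0.26, adjusted p = 1.89e-05). Pi16, a secreted protein of adventitial fibroblasts, stood at 0, 1.40 and 1.57 CPM at P4 and 71.0, 79.3 and 44.7 CPM at P14 (5.13 ± 0.52, adjusted p = 4.88e-06), and Mfap5, a microfibril protein, at 11.1, 71.1 and 31.7 CPM at P4 and 244, 177 and 143 CPM at P14 (2.59 ± 0.49, adjusted p = 0.00304). Dcn, the proteoglycan decorin, went from 591, 799 and 575 CPM to 1912, 2069.9 and 1679 CPM (1.54 ± 0.38, adjusted p = 0.0187). The defining fibroblast marker Col1a1 was not called (0.60, adjusted p = 0.351). It stood at 2292, 3788 and 3269 CPM at P4 and 5357, 5110 and 3595 CPM at P14, with overlap. Pdgfra, also a defining marker, stood at 98.2, 123 and 94.2 CPM at P4 and 181, 244 and 191 CPM at P14, without overlap. The summed level of the list was 8061, 14834 and 16205 CPM at P4 and 25175, 23599 and 21299 CPM at P14, so that P4 replicate 1 stood lowest. In bulk tissue more cells of a type and more RNA per cell cannot be told apart. The number of fibroblast markers called was 4 without P4 replicate 1, 3 without P14 replicate 1 and 3 without P14 replicate 2, and the Dcn call was lost in the last 2 cases.

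Collagen and matrix genes were called in both directions. Of 40 tested 8 were higher (20%, against 2.68% of all genes tested) and 3 lower (7.5%, against 2.91%). Col4a3 and Col4a4, partner chains of a specialised basement membrane collagen, rose by 2.51 and 2.01, and Col6a3 by 1.12. The fibrillin gene Fbn2, which builds embryonic microfibrils, fell from 505, 551 and 663 CPM to 172, 219 and 161 CPM (-1.64 ± 0.18, adjusted p = 1.20e-05), and Col11a1, a fibril-nucleating collagen of fetal tissue, from 10.8, 14.4 and 43.1 CPM to 2.37, 2.00 and 0.640 CPM (-2.97 ± 0.55, adjusted p = 0.00267). Both decreases held whichever library was left out. The number of higher calls was 0 without P4 replicate 1, 16 without P4 replicate 3 and 1 to 4 without any other library, and those of the 3 collagens just named were each lost without P4 replicate 1 and in at least 1 other case. Hmcn2, a gene of the large matrix protein hemicentin 2, gave the largest increase of all genes under the naming rule. It stood at 0.918, 0 and 0.261 CPM at P4 and 91.5, 142 and 63.8 CPM at P14, 3 P14 libraries with abundant reads against P4 libraries with hardly any (6.14 ± 0.47, adjusted p = 9.01e-08). Wisp2, a secreted matricellular protein also known as Ccn5, stood at 0, 0.1003 and 4.09 CPM at P4 and 76.5, 16.5 and 59.8 CPM at P14 (4.62 ± 0.68, adjusted p = 2.98e-04). Among laminin genes, Lamb2 of mature basement membranes rose by 0.98 and Lamb1, its counterpart in the embryo, fell by 0.73, and both calls were lost without P14 replicate 1, that of Lamb2 also without P4 replicate 1 or P14 replicate 2.

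Complement genes were called higher in 8 of 16 cases (50%, against 2.68% of all genes tested) and lower in 0. The median was 1.31, and edgeR called 5 higher. Serping1, the C1 inhibitor, stood at 69.6, 86.2 and 113 CPM at P4 and 416, 343 and 407 CPM at P14 (2.13 ± 0.34, adjusted p = 7.17e-04). C4b, a central component of the classical pathway, rose from at most 5 reads in a P4 library to 93.0, 29.2 and 25.5 CPM (5.12 ± 0.64, adjusted p = 5.03e-05). The proteases C1ra and C1s rose by 2.28 and 2.48, calls that were lost without P14 replicate 1 or P14 replicate 3, and without P4 replicate 1 for C1ra or P4 replicate 2 for C1s. The count was 5 without P4 replicate 1, P4 replicate 2, P14 replicate 1 or P14 replicate 3. Summed fibroblast markers were 8061 to 16205 CPM at P4 and 21299 to 25175 CPM at P14, and summed macrophage markers also stood higher at P14 in every library, and their part in the complement result was not tested.

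Some markers of other cell types in the captured tissue were higher at P14. Of 21 macrophage markers 3 were called higher (14.3%, against 2.68% of all genes tested) and 0 lower (median 0.94). Their summed level was 250 to 398 CPM at P4 and 719 to 941 CPM at P14. Lyz2, the lysozyme gene of myeloid cells, stood at 42.8, 25.4 and 28.4 CPM at P4 and 244, 139 and 309.9 CPM at P14 (2.77 ± 0.39, adjusted p = 1.95e-04), and Cd163, a scavenger receptor of resident macrophages, at 5.14, 3.31 and 0.261 CPM at P4 and 22.3, 20.3 and 36.7 CPM at P14 (3.04 ± 0.60, adjusted p = 0.00424). The defining macrophage marker Csf1r was not among the calls, at 46.8, 43.7 and 26.8 CPM at P4 and 70.9, 68.1 and 69.7 CPM at P14. Of 12 markers of glia and Schwann cells 2 were higher (16.7%, median 1.24). That count was 1 without P4 replicate 2 or P14 replicate 1 and 5 without P4 replicate 3. Those called higher included the cadherin gene Cdh19 of Schwann cell precursors. It stood at 0.184, 0.802 and 2.96 CPM at P4 and 37.8, 17.99 and 17.2 CPM at P14 (3.54 ± 0.50, adjusted p = 2.25e-04). Chl1, an adhesion molecule of nerve and glia and one of the 12 largest increases, stood at 0.184, 1.503 and 8.00 CPM at P4 and 74.6, 26.9 and 61.5 CPM at P14 (4.09 ± 0.62, adjusted p = 3.89e-04). The glial marker Sox10 was at 1.93 to 9.62 CPM at P4 and at 8.53 to 28.6 CPM at P14.

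Some genes of neurons were lower. Of 13 markers of autonomic neurons 3 were lower (23.1%, against 2.91% of all genes tested) and 0 higher, with a median of -0.65. Th encodes tyrosine hydroxylase, the first enzyme of catecholamine synthesis. It stood at 185, 38.6 and 9.83 CPM at P4 and 1.06, 3.33 and 0.320 CPM at P14, so that the P4 libraries differed widely among themselves and still did not overlap P14 (-4.24 ± 0.75, adjusted p = 0.00167). Ddc, the next enzyme of that pathway, stood at 8.53, 27.0 and 16.7 CPM at P4 and 3.11, 4.13 and 1.68 CPM at P14 (-2.13), and its call was lost without P4 replicate 2 or P14 replicate 3. Dbh, the enzyme that makes noradrenaline, had 14.4, 15.5 and 14.3 CPM at P4 and 27.1, 33.3 and 23.6 CPM at P14, in the opposite order to Th, and was not called. Uchl1, a ubiquitin hydrolase abundant in neurons, stood at 105, 67.7 and 73.0 CPM at P4 and 18.7, 8.00 and 19.8 CPM at P14 (-2.39 ± 0.41, adjusted p = 0.00114). Calca, the gene of calcitonin and the neuropeptide CGRP, fell from 34.1, 28.9 and 9.22 CPM to 0, 0.533 and 1.60 CPM (-3.80 ± 0.71, adjusted p = 0.00305).

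A few vessel markers were higher, with a wide spread within P4. Of 19 endothelial markers 4 were higher (21.1%, against 2.68% of all genes tested) and 1 lower (5.26%, against 2.91%). Of 14 smooth muscle and pericyte markers 2 were higher (14.3%). Vwf, the endothelial von Willebrand factor, stood at 9.45, 69.8 and 279 CPM at P4 and 407, 262 and 316 CPM at P14 (2.45), and the smooth muscle genes Acta2 and Myh11 at 21.5, 217 and 1070.3 CPM at P4 and 2027, 1132 and 1393 CPM at P14 and at 5.78, 121 and 308 CPM at P4 and 743, 398 and 673 CPM at P14. In all of them P4 replicate 1 had the least and P4 replicate 3 approached or entered the P14 range. The calls for Vwf, Acta2 and Myh11 were lost in at least 4 of the 6 cases where a library was left out. The number of higher endothelial calls was 0 without P14 replicate 3 and 1 without P4 replicate 1, P4 replicate 2 or P14 replicate 1, and that of smooth muscle calls was 0 without P4 replicate 1, P4 replicate 2 or P14 replicate 1 and 6 without P4 replicate 3. The smooth muscle markers summed to 1532, 1668 and 4396 CPM at P4 and 4892, 3956 and 4208 CPM at P14. The pan-endothelial cadherin gene Cdh5 was not called, with 263, 190.0 and 247 CPM at P4 and 227, 253 and 201 CPM at P14. Tfrc, the transferrin receptor listed here as an erythroid marker but made by many cells that take up iron, rose from 100.8, 154 and 102 CPM to 286, 327 and 345 CPM (1.44 ± 0.22, adjusted p = 4.41e-04), while the haemoglobin gene Hbb-b1 stood at 373 to 1418 CPM and 168 to 962 CPM. Lymphocyte and lung markers summed to no more than 5.33 and 1.20 CPM in any of the 6 libraries. Of cartilage markers Col2a1 stayed under 2 CPM while Acan ranged from 0 to 54.9 CPM at P4 and from 1.20 to 21.1 CPM at P14, and the ventricular factor Irx4 was at 0 in all 6.

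**Figure D3:**
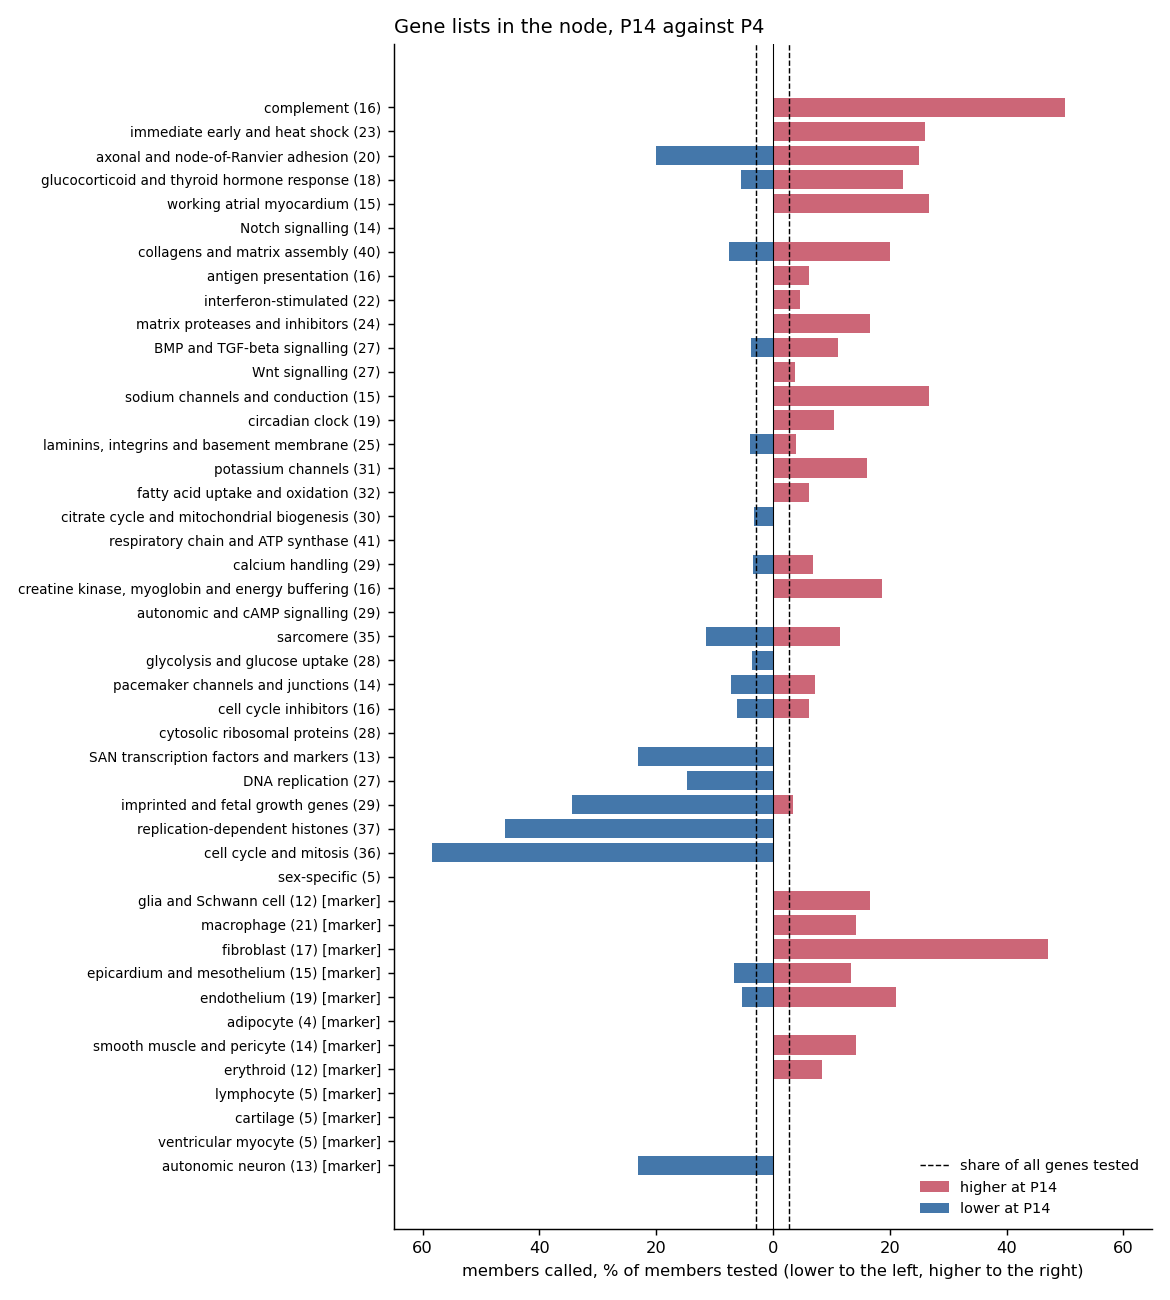
Share of tested members called higher (right) or lower (left) at P14 in SAN for each gene list, with the number tested in brackets; dashed lines mark the 2.68% and 2.91% of all genes tested that were called higher and lower. The cell cycle and histone lists reach furthest to the left and the complement and fibroblast lists furthest to the right, and the list of airway and lung markers had no member tested.

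Some genes that respond to stimuli and to hormones were higher at P14. Of 23 immediate early and heat shock genes 6 were higher (26.1%, against 2.68% of all genes tested) and 0 lower (median 0.91). Dusp1, a phosphatase that switches off MAP kinases, stood at 71.6, 60.3 and 49.5 CPM at P4 and 289.8, 429 and 220.5 CPM at P14 (2.31 ± 0.35, adjusted p = 4.48e-04). Egr1, an early response transcription factor, stood at 50.4, 90.4 and 103 CPM at P4 and 256, 852 and 198 CPM at P14 and rose by 2.16, with P14 replicate 2 far above the others and the call lost without it. The count was 2 without P14 replicate 1 or P14 replicate 2. The summed level of the list was 507 to 666 CPM at P4 and 983 to 2180 CPM at P14. Among 18 genes of glucocorticoid and thyroid hormone response 4 were higher (22.2%) and 1 lower (5.56%, against 2.91% of all genes tested). Hr, a co-repressor of nuclear receptors, went from 1.65, 15.5 and 2.87 CPM to 64.2, 52.6 and 31.9 CPM (3.14 ± 0.59, adjusted p = 0.00305). Errfi1, a feedback inhibitor of the EGF receptor induced by glucocorticoids, went from 15.3, 58.3 and 23.6 CPM to 122, 222 and 107 CPM (2.32 ± 0.39, adjusted p = 0.00112). Dio2, the enzyme that activates thyroid hormone, stood at 2.20, 3.51 and 24.4 CPM at P4 and 72.4, 61.6 and 61.0 CPM at P14 (3.20), and its call was lost without P4 replicate 1 or P4 replicate 2. Of the glucocorticoid targets, Tsc22d3 was called higher (1.26) and Fkbp5 lower (-1.96), and both calls were lost in at least 3 of the 6 cases.

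Of 19 circadian clock genes 2 were called, both higher (10.5%, against 2.68% of all genes tested). Without P4 replicate 1, 4 were called higher. Nr1d1, the clock repressor REV-ERB alpha, stood at 23.9, 8.12 and 29.9 CPM at P4 and 84.7, 87.6 and 99.0 CPM at P14 (2.25 ± 0.42, adjusted p = 0.00257), and Rora, the activator that competes with it, at 55.3, 65.8 and 60.4 CPM at P4 and 138, 166 and 152 CPM at P14 (1.32 ± 0.26, adjusted p = 0.00476). The core activators Clock and Arntl differed by 0.00 and -0.63, and Per1 and Per2 by 0.32 and 1.35, none of them called. The time of day at collection is not given in the sources used here.

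Genes of bone morphogenetic protein (BMP) and TGF-beta signalling were called in both directions, 3 of 27 higher (11.1%, against 2.68% of all genes tested) and 1 lower (3.70%, against 2.91%). Bmp7 stood at 44.1, 54.7 and 46.1 CPM at P4 and 7.94, 2.67 and 2.40 CPM at P14, after at least 254 CPM at E14.5 (-3.35 ± 0.41, adjusted p = 3.56e-05). Bmp6 stood at 3.49, 1.40 and 5.83 CPM at P4 and 44.4, 23.2 and 40.7 CPM at P14 (3.09 ± 0.48, adjusted p = 4.91e-04), in the opposite direction. Tgfbr3, a co-receptor for TGF-beta ligands, went from 43.8, 30.7 and 50.4 CPM to 128, 153 and 138 CPM (1.75 ± 0.28, adjusted p = 7.66e-04). Without P4 replicate 3, 6 genes of this list were called higher. Sfrp4, a secreted Wnt antagonist, was the only call among 27 Wnt genes, 3.70% of the list (3.51 ± 0.59, adjusted p = 0.00103), and it was lost in edgeR and DESeq2 (adjusted p = 0.0980 and 0.177). None of 14 Notch genes was called by limma, edgeR or DESeq2, where 2 had an unadjusted limma p under 0.05. Without P4 replicate 3, 3 Wnt genes and 4 Notch genes were called higher, beside 637 of all 17568 genes tested. None of 28 cytosolic ribosomal protein genes was called by these tools, with 9 at an unadjusted p under 0.05. All 28 had a negative difference (median -0.44, against -0.08 for all genes tested), and 2 were called lower without P4 replicate 1.

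Among the other largest changes were genes of no list. Efhd1, a calcium-binding protein of mitochondria, stood at 0.0916, 0 and 1.57 CPM at P4 and 36.2, 26.1 and 13.3 CPM at P14 (4.11 ± 0.45, adjusted p = 1.10e-05). Aspa, the enzyme that splits N-acetylaspartate, stood at 6.97, 0.301 and 0 CPM at P4 and 46.2, 46.1 and 24.3 CPM at P14 (4.14 ± 0.68, adjusted p = 9.11e-04). Lrat, which makes retinyl esters for vitamin A storage, stood at 0.367, 0 and 0 CPM at P4 and 13.7, 8.93 and 44.7 CPM at P14, and its call was lost without P4 replicate 2 or P14 replicate 3. Zfp618, a zinc finger protein gene, went from 32.7, 39.2 and 44.4 CPM to 0.0818, 6.398 and 4.80 CPM (-3.46 ± 0.47, adjusted p = 1.70e-04), and Nrk, a kinase gene of embryonic tissue, from 112, 113 and 126 CPM to 1.31, 35.3 and 19.1 CPM (-3.31 ± 0.56, adjusted p = 0.00119).

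**Figure D4:**
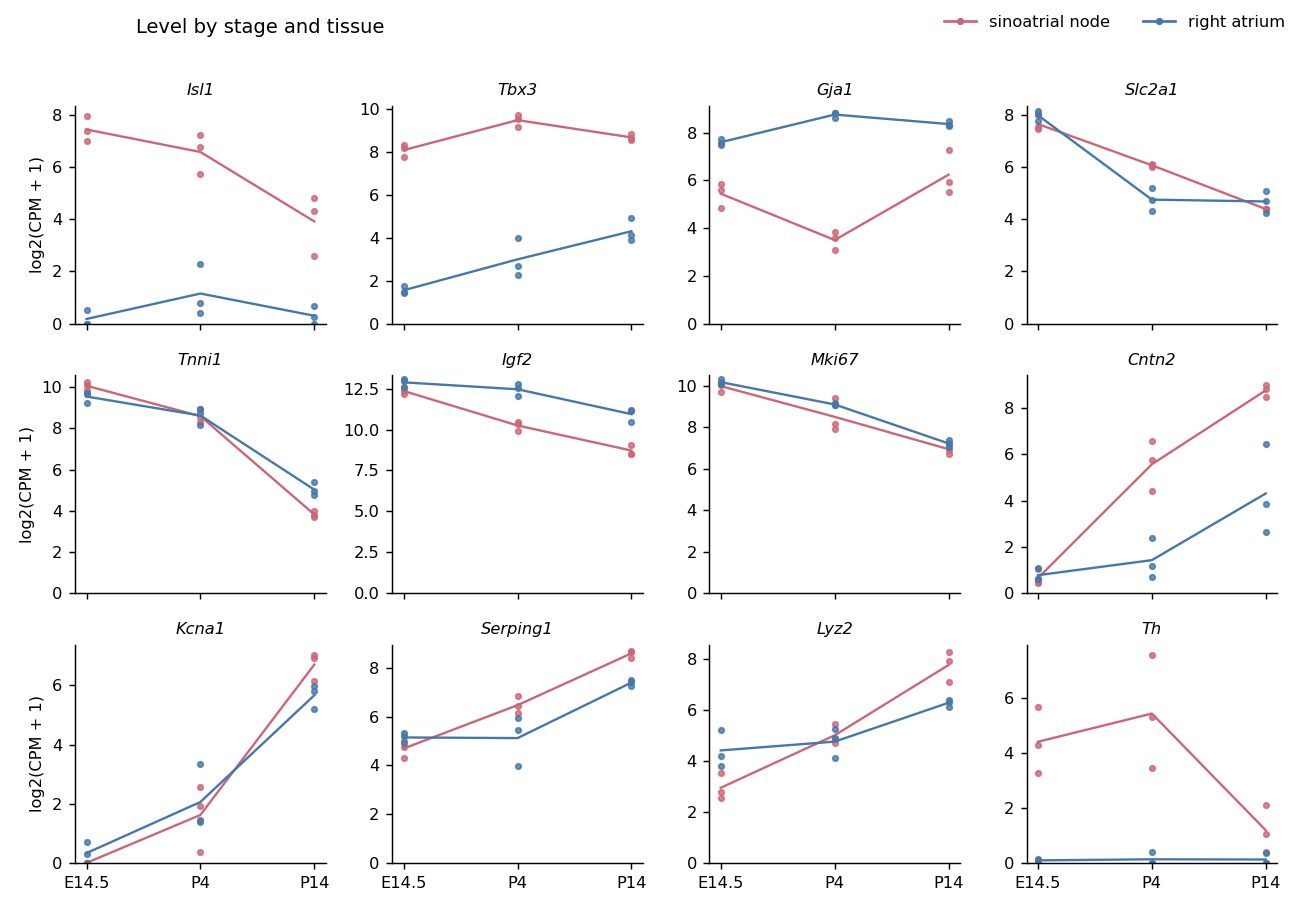
Level of 12 genes at E14.5, P4 and P14 in SAN and RA, as log2(CPM + 1), with 3 libraries per point (dots) and lines through their means. Tnni1, Igf2 and Mki67 step down in both tissues, the SAN mean of Gja1 is lowest at P4, and Th has hardly any reads in RA.

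The same interval was compared in RA, with other libraries on both sides. Both comparisons took the spread of each gene from the same fit of 18 libraries, so their calls are not independent. In RA 1188 genes were called (6.76%), 236 higher (1.34%) and 952 lower (5.42%), with a median of -0.24 that became 0.00, with 425 higher and 299 lower, when libraries were scaled to equal upper quartiles. The RA count was 630 to 763 without RA P4 replicate 2 or 3 or any one of the RA P14 libraries. Of the SAN calls 92 were called higher in both tissues, which is 19.5% of the higher SAN calls and 39.0% of those of RA, and 239 were called lower in both, 46.8% and 25.1%. The cell cycle list was lower in 26 of 36 genes in RA (median -1.86), the histone list in 16 of 37 and the imprinted list in 16 of 29. Tnni1 fell in both tissues (-4.77 and -3.60), as did Igf2 (-1.53 and -1.52) and Bmp7 (-3.35 and -2.90), and Kcna1 rose in both (5.08 and 3.60). The respiratory chain list had 9 of 41 genes called higher in RA and 0 in SAN, and the citrate cycle list 8 of 30 and 0. No gene of these 2 lists was called in the test of the difference between tissues.

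Direct tests of the difference in change between tissues called 30 genes, 0.171% of genes tested, 26 with a more positive change in SAN (0.148%) and 4 with a more negative one (0.0228%). Scaling to equal upper quartiles left 14 and 8, and edgeR on the recovered reads called 9 and 10, so the split by direction depends on scaling. The count was 9 to 18 when a library other than SAN P4 replicate 3 was left out and 188 without SAN P4 replicate 3. Hmcn2 rose in SAN and had no more than 0.733 CPM in any RA library of these stages, and the difference was 6.64 ± 0.67, adjusted p = 2.72e-05. Gja1 stood at 454, 387 and 456 CPM in RA at P4 and 359, 305 and 319 CPM at P14, a change of -0.40, and the difference to SAN was 3.13 ± 0.46, adjusted p = 0.00326. Both were also called with equal library totals, equal upper quartiles, edgeR and DESeq2, and in all 12 cases where a library was left out. The same held for Tgfbi, Fgl2, Tuba4a and Ptprt, which fall outside the naming rule and were picked after their values were seen.

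**Figure D5:**
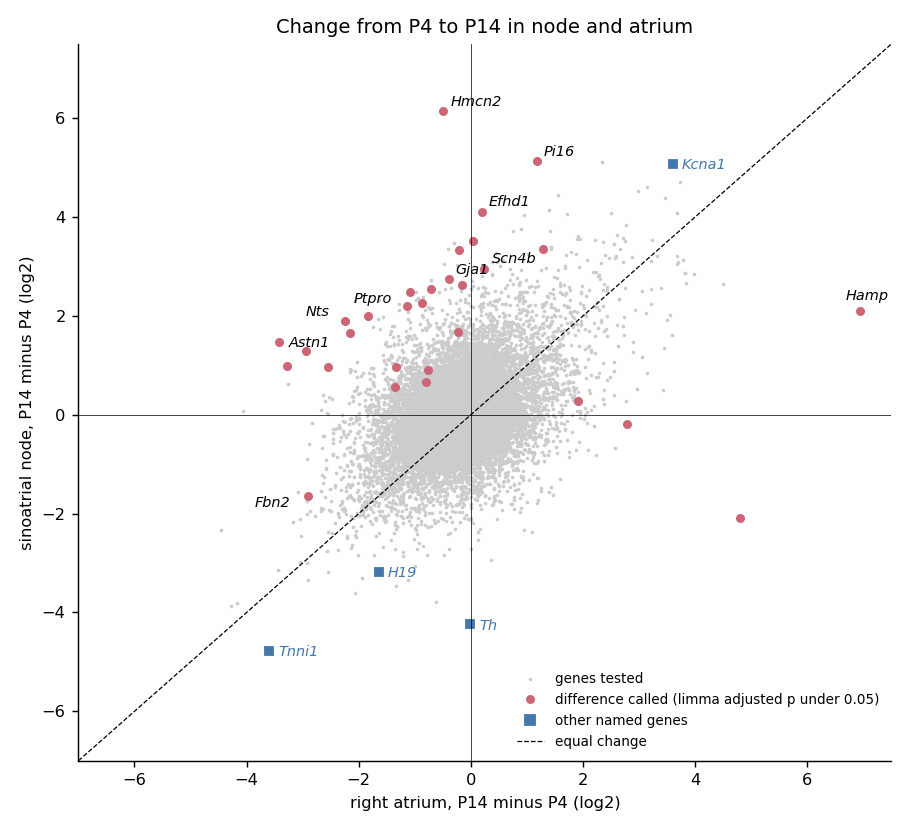
Change from P4 to P14 in SAN against the change in RA on the log2(CPM + 1) scale, with each of 17568 genes as a grey point, the 30 genes with a called difference in red and 4 other named genes as blue squares; the dashed line marks equal change. Hmcn2, Gja1 and Efhd1 lie near 0 for RA and well above 0 for SAN, Hamp lies far to the right, and Tnni1, H19 and Kcna1 moved in the same direction in both tissues.

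The remaining named differences rested on fewer settings. Hamp, the gene of the iron hormone hepcidin, stood at 31.8, 86.3 and 60.7 CPM at P4 and 226, 456 and 135 CPM at P14 in SAN and rose from at most 1.12 CPM to 112, 278 and 123 CPM in RA, a difference of -4.83 ± 0.73, adjusted p = 0.00346. Scn4b had no more than 0.591 CPM in any RA library of these stages (2.71 ± 0.50, adjusted p = 0.0346), and Efhd1 no more than 0.438 CPM (3.91 ± 0.64, adjusted p = 0.00839). The differences of Hamp and Efhd1 were called in all 12 cases where a library was left out, but in 3 and 2 of the 4 other scalings and tools. The changes of Pi16 were 5.13 in SAN and 1.17 in RA (3.96 ± 0.74, adjusted p = 0.0346), of which the RA change was not called. Fbn2 fell in both, by 1.64 and 2.90, less in SAN (1.26 ± 0.26, adjusted p = 0.0483). Astn1, Nts and Ptpro were called lower in RA, and in SAN their means went from 4.09, 1.55 and 0.826 CPM to 13.2, 9.53 and 6.75 CPM, of which Ptpro was called. Their differences were 3.81, 4.14 and 3.84. For Pi16, Scn4b, Fbn2, Astn1, Nts and Ptpro the difference was called in at most 4 of the 12 cases where a library was left out. For Isl1, Tbx3, Shox2, Th, Mb and Slc2a1 the change in SAN was not shown to differ from that in RA (adjusted p = 0.459, 0.0986, 0.258, 0.146, 0.314 and 0.0921).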

How the data were processed

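Laser-captured SAN and RA tissue was amplified with a kit for low input and sequenced. The authors' deposited table holds 1 signal value per gene and library, for 20870 genes in 25 libraries, which are gene counts divided by a scaling factor per library. Alignment with TopHat2 2.0.6 to build mm8 and scaling with edgeR are per the submitters' processing notes, while the read counter and annotation are not given in the sources used here. All 25 columns of values were matched to samples.

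The deposited signal was divided by a single constant, 24.3374, to give CPM. Within each library the values were whole multiples of 1 step within 0.1 of a read (100% of values in each of the 6 SAN libraries compared), which gave back the reads and the depth. The values had been assumed to be CPM, and the planned test was kept. The test covered the 17568 genes that reached 1 CPM in 3 or more of the 18 SAN and RA libraries, on log2(CPM + 1) with limma 3.58.1 in R 4.3.3, in 1 fit of 6 group means with the trend of spread with level. P14 was set against P4 within SAN, within RA, and between the tissues (SAN change minus RA change), with Benjamini-Hochberg adjustment over all genes tested and a threshold of 0.05. edgeR 4.0.16 (quasi-likelihood) on the recovered reads called 666 genes in SAN and DESeq2 1.42.0 called 1429. Scripts were tested on simulated data, and tables and figures were made with Python 3.11.15.

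Named genes were 9 of the node and atrium, the 12 largest changes in each direction among called genes with stages apart and a higher mean of at least 5 CPM, the 5 smallest p-values of each list, every member of the node factor, pacemaker, sarcomere, calcium and clock lists, and the 6 largest differences between tissues in each direction. The largest changes skipped unnamed gene models and genes of haemoglobin, histocompatibility, immunoglobulin, ribosomes and mitochondrial DNA. Other genes given by value are markers of the lists. The 46 lists, 13 of them cell type markers, and the comparison itself were chosen with earlier results of these data known. Promoters are from RefSeq GRCm38.p6, in which 18799 of the gene symbols (90.1%) were found. Some genes are not reported here. Floors of 3 reads cover counting error only. Replicate numbers showed no pairing between the postnatal stages within a tissue, and pairing of SAN with RA libraries was not tested. The alternatives were other pseudocounts, filters, scalings, tools, subsets of libraries, a replicate block, and leaving out each library.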

Additional observations from a re-analysis of the deposited data

Results flagged for a closer look

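For 10 named genes the test of the difference itself called the change from P4 to P14 in SAN different from the change in RA. The difference, as SAN change minus RA change on the log2(CPM + 1) scale, was 6.64 for Hmcn2, 4.14 for Nts, 3.96 for Pi16, 3.91 for Efhd1, 3.84 for Ptpro, 3.81 for Astn1, 3.13 for Gja1, 2.71 for Scn4b and 1.26 for Fbn2. It was -4.83 for Hamp. Groups of 3 libraries are too small for a formal search for outlying libraries. The count of called differences was 188 without SAN P4 replicate 3 and 9 to 18 without any other library.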

How the results depend on the processing

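The number of genes called in SAN kept within 1.5 times of 982 under other pseudocounts, filters, scalings and tools, and was 438 with the 9 SAN libraries alone, 43 with the 6 alone, and 555 to 1148 when a library was left out. Replicate numbers showed no pairing between P4 and P14 libraries of SAN. The correlation of deviations from the group means between libraries of the same number was -0.0251 to 0.0145. Not every library correlated best with its own number. Whether SAN and RA libraries of the same stage and number were paired was not tested. With the replicate block 937 genes were called in SAN, 1088 in RA and 21 for the difference. Within the 6 SAN libraries limma called 43 genes without the block and 0 with it (2183 at an unadjusted p under 0.05). No other tool was run on these 6 alone. Of 130 called genes among the 319 named, 98 kept the call in edgeR, 114 in DESeq2 and 67 whichever library was left out, and 0 reversed under any setting. Some list counts moved with the tool: edgeR called 1 and DESeq2 8 DNA replication genes lower (4 in limma), edgeR called 1 macrophage marker higher (3 in limma), edgeR called 0 and DESeq2 1 smooth muscle marker higher (2 in limma), and DESeq2 called 28 histone genes lower (17 in limma) and 6 clock genes higher (2 in limma). In RA 1188 calls became 790 with equal library totals, 724 with equal upper quartiles, 541 in edgeR, 350 with the 6 RA libraries alone, and 630 to 899 when a library was left out. For the difference between tissues 30 calls became 12 with a pseudocount of 0.2, 16 without a filter, 19 in edgeR, 113 in DESeq2, and 9 to 188 when a library was left out. The cause of these shifts was not tested. Genes under about 1 CPM rest on few reads, and a change there was not detectable at this depth. With 3 libraries a stage, a difference that missed the threshold is not shown to be absent.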
